A study of Mus musculus with 6 samples.

Results

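The data describe 38 genes of skeletal muscle in RNA from tumor pieces, chosen by name from the 54146 genes in the count tables, and all 38 were found. They comprise 13 genes typical of fast fibers, 7 typical of slow fibers and 18 that both fiber types use. 4T1, a line of mouse mammary carcinoma, was grown as tumors by placing the cells in the fat pad of the mammary gland in nude mice. Such mice have no thymus and few T cells. The wild-type group holds 3 libraries from tumors of unmodified cells. The knockout group holds 3 libraries from tumors of cells knocked out for Mki67 (Mki67-/-), which encodes the proliferation marker Ki-67. Tumors of both groups were taken 3 weeks after the cells were placed. The age of the mice, and how many clones the knockout cells came from, are not given in the labels, so a difference between clones and an effect of the knockout cannot be told apart. Whole tumors were cut into pieces, so a library can hold RNA from host tissue around the tumor, and fewer cells of a type and less RNA per cell cannot be told apart in such bulk RNA.

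Skeletal muscle fibers are long multinucleate cells that contract when myosin thick filaments slide along actin thin filaments. Calcium released from the sarcoplasmic reticulum binds troponin C on the thin filament and so exposes actin to myosin. Fast and slow fibers use different genes for most of these parts, with fast and slow forms of myosin heavy and light chains, of the troponins and of myosin-binding protein C. In mice a thin sheet of mostly fast skeletal muscle, the panniculus carnosus, lies under the skin.

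Between 22081970 and 38399826 read pairs per library were counted for genes, with the knockout group the shallower of the 2. Of all read pairs, 30.8% to 33.9% were unmapped in the wild-type libraries and knockout replicate 1, against 54.6% and 52.7% in knockout replicates 2 and 3. The share of uniquely mapped pairs that fell outside exons was 9.24% to 11.1% in the wild-type group and 14.2%, 9.91% and 18.9% in knockout replicates 1, 2 and 3. Levels are given in CPM, counts per 1000000 counts of the library, after scaling by TMM, a method that corrects for differences in library makeup. Library values are listed in the order of replicates 1, 2 and 3. A count of 0 allows up to 3 counts, which is 0.0781 to 0.136 CPM of a library's own total, and this limit covers counting error only. Mki67 itself was at 359.6, 395 and 325 CPM in the wild-type and 98.7, 117 and 138.5 CPM in the knockout libraries, with no overlap between the groups. Of epithelial genes that carcinoma cells carry, Krt8 was at means of 1449 and 1640 CPM in wild-type and knockout tumors and Epcam at 117 and 902 CPM.

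Most of the skeletal muscle genes were higher in the knockout tumors. The rise was 4.91-fold for Mb (myoglobin), 3.10-fold for Ttn (titin), 2.57-fold for the fast myosin heavy chain Myh1, 2.80-fold for the calcium pump Atp2a1 and 2.28-fold for Acta1 (skeletal actin), while Eno3 and Tnnt3, the most abundant members in wild-type tumors, did not pass the test. Of the 38 genes, 33 had enough counts to be tested, 20 were higher, 0 were lower and 13 did not pass (edgeR quasi-likelihood test, adjusted p under 0.05). Of all 19900 genes tested, 17.6% were higher and 18.4% lower by the same rule. DESeq2 called 20 members higher and 0 lower (adjusted p under 0.05), against 18.8% and 19.9% of all genes. At an unadjusted p under 0.05 in edgeR, 24 members were higher and 0 lower. For that unadjusted rule no share of all genes is given, so its count has no background here. The median log2 fold change was 1.15 over the 33 members and 0.05 over all genes tested. Every knockout library lay above every wild-type library for 23 of the 33, against 24.5% of all genes tested. Leaving out wild-type replicate 1 left 12 members higher (8.61% of all genes), wild-type replicate 3 left 10 (8.76%) and knockout replicate 3 left 11 (12.6%). With only the libraries under 40% unmapped pairs, in which knockout replicate 1 is the sole knockout library, 11 were higher (13.9% of all genes). With the share of unmapped pairs as a covariate, 9 were higher (11.7%), and with the share of pairs outside exons in its place 10 were higher (14.2%). Calls lost both with only these libraries and with the unmapped covariate were those of Ckm, Mylpf, Tcap, Atp2a1, Pvalb, Neb, Ryr1, Mybpc1 and Xirp2. Those of Ttn and Myl1 were lost in the first setting and those of Myh4 and Pygm in the second. The members higher in the first setting include some that were not called with all libraries. With the share outside exons the calls of Myh4, Mylpf, Tcap, Actn3, Pvalb, Neb, Ryr1, Pygm, Mybpc1 and Xirp2 were lost. The other settings left 16 to 22 higher, with 20 by RLE factors (17.7%), 22 by library totals alone (20%), 20 in a robust fit (17.6%), 18 under a replicate block (15.5% of all genes), 18 with no filter on low counts (7.82%), 18 of 23 with a stricter filter (23.7%), 16 in the first stranded column (20.6%), 17 without wild-type replicate 2 (9.4%), 20 without knockout replicate 1 (20.6%) and also 20 without knockout replicate 2 (21.1%). With each library left out in turn, 0 members were lower except for Eno3 without knockout replicate 1, where 10.7% to 22.7% of all genes were.

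Split by level, the members called were mainly those above 1 CPM. Of 13 members with a mean under 1 CPM, 4 were higher, where 11.3% of all genes in that range were. Between 1 and 5 CPM, 11 of 13 were higher, against 25.8% of all genes. At 5 CPM or more, 5 of 7 were higher, against 17.7%.

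**Figure D1:**
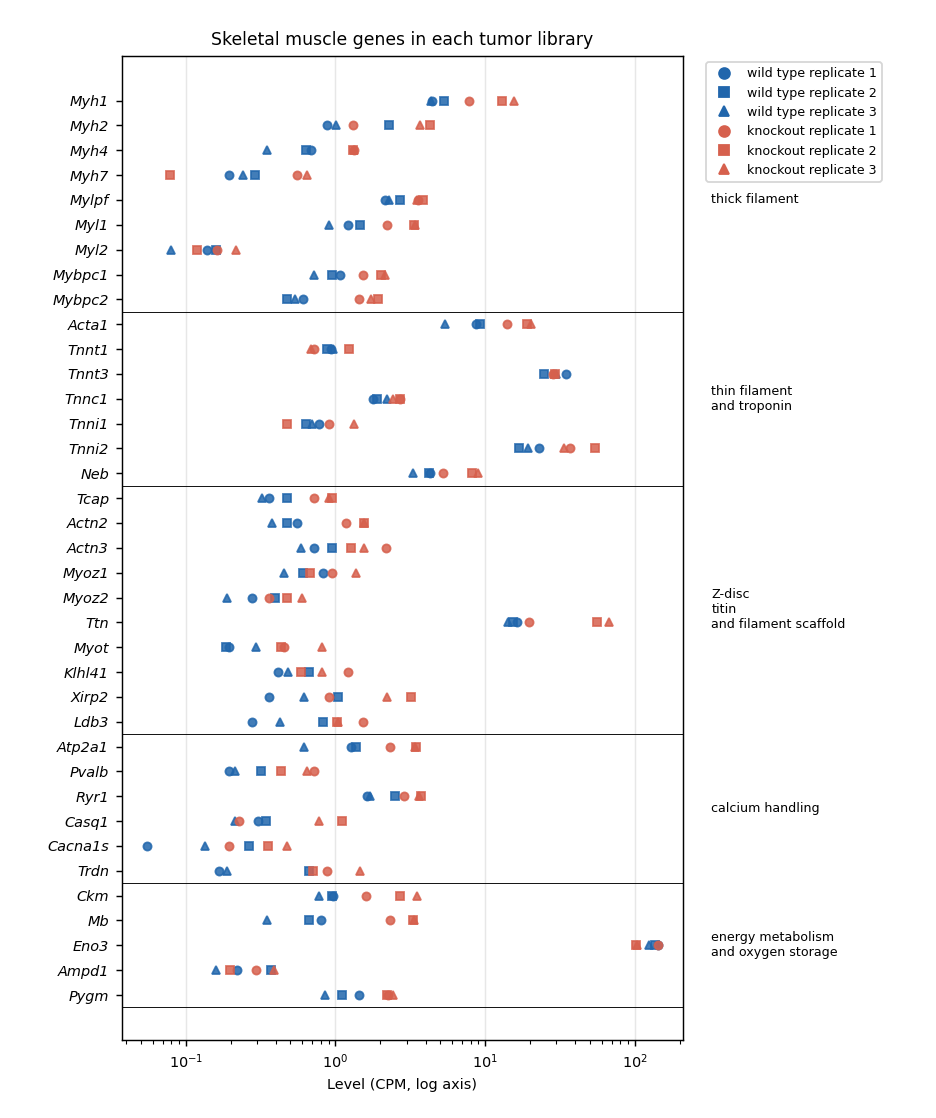
Level of each counted skeletal muscle gene (CPM, log axis) in the 3 wild-type (blue) and 3 knockout (red) libraries, with a marker shape for each replicate number and genes grouped by role. Tnnc2, at 0 counts in all libraries, is left out, and Eno3, Tnnt3 and Tnni2 stand at over 15 CPM in every library.

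Per kilobase of exon, 3 members stood above the other 35 members in both groups. Eno3, the muscle form of the glycolytic enzyme enolase, was at 77.3 CPM per kilobase in wild-type tumors, Tnnt3 at 18.9 and Tnni2 at 13.2. The next was Acta1, skeletal muscle actin and the main protein of the thin filament, at 5.07 CPM per kilobase, and Mylpf followed at 2.24. The 38 members summed to 255, 239 and 220 CPM in the wild-type and 294, 331 and 330 CPM in the knockout libraries. Without Eno3, Tnni2 and Tnnt3, set aside after their levels were seen, the other 35 summed to 55.1, 60.7 and 46.2 CPM in the wild-type and 86.0, 146 and 164 CPM in the knockout libraries. That sum was 1.59, 2.70 and 3.04 times the wild-type mean in knockout replicates 1, 2 and 3, so knockout replicate 1 was the lowest of its group.

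Proximal promoter sequences are shown for the members with the highest levels per kilobase that have an entry in RefSeq's table (GRCm38.p6), Eno3, Acta1, Mylpf and Tnnc1, and for Myh1, the most abundant of the fast myosin heavy chains, added after its values were seen. Acta1, Mylpf and Myh1 were higher in knockout tumors, while Eno3 and Tnnc1 did not pass the test. Each sequence is the 250 bases before the RefSeq start, read 5′ to 3′ along the gene's strand. For Mylpf that start lies 2718 bases from the gene's start in GENCODE, the annotation used here for coordinates. The other starts lie within 50 bases of theirs. For Myh1, bases 31 to 50 after the RefSeq start lie in no GENCODE transcript. The windows are chr11:70656926-70657175 on the plus strand for Eno3, chr8:123894776-123895025 on the minus strand for Acta1, chr7:127211358-127211607 on the plus strand for Mylpf, chr14:31208062-31208311 on the plus strand for Tnnc1 and chr11:67199852-67200101 on the plus strand for Myh1. Capitals mark CAGCTG, an E-box of the kind that MyoD and its relatives bind and TATAAA on either strand.
Eno3: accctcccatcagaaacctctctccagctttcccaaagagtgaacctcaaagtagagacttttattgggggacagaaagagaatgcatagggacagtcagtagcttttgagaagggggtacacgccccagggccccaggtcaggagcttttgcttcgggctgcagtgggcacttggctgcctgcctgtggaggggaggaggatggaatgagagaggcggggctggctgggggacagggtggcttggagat
Acta1: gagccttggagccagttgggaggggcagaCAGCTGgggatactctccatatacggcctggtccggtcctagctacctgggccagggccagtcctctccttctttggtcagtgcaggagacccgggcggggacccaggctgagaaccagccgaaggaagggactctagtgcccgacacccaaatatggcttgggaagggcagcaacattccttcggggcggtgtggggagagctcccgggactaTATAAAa
Mylpf: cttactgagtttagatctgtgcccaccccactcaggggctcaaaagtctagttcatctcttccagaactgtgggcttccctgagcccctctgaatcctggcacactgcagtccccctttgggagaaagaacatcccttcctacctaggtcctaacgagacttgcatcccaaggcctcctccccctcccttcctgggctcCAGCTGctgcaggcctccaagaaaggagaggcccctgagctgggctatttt
Tnnc1: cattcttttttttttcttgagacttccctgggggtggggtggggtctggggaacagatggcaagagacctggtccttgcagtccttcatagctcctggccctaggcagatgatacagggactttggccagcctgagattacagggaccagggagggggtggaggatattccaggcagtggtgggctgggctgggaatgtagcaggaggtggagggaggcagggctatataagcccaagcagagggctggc
Myh1: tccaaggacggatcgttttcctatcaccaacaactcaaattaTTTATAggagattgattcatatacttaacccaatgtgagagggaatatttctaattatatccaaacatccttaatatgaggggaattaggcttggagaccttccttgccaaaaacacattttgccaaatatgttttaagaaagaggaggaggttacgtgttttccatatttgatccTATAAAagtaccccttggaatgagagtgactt
Acta1 held the E-box and a TATAAA, Mylpf held the E-box, Myh1 held TATAAA on each strand, and Eno3 and Tnnc1 held neither. Over the 29 members with a promoter in the table, 15 held CAGCTG in at least 1 listed window, against 14.7% of all 27025 genes in the table. TATAAA, searched on both strands and never overlapping CAGCTG, was held by 6 of 29 members and 14.3% of all genes. These are matches of letters in these windows and say nothing of whether a factor bound there.

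Of the thick filament genes, 6 of 7 tested members were higher, against 17.6% of all genes tested. Myh1, the heavy chain of fast type 2X fibers, was at 4.39, 5.30 and 4.36 CPM in the wild-type and 7.78, 12.9 and 15.5 CPM in the knockout libraries. The groups did not overlap, and knockout replicate 1 was the nearest to the wild type (log2 fold change 1.36, SE 0.25, edgeR adjusted p = 0.00347). With only the libraries under 40% unmapped pairs, the log2 fold change of Myh1 was 0.67 and still passed (adjusted p = 0.0173). Myh4, the heavy chain of the fastest type 2B fibers, was at 0.690, 0.636 and 0.347 CPM in the wild-type and 1.33, 1.30 and 1.33 CPM in the knockout libraries (log2 fold change 1.24, SE 0.34, adjusted p = 0.0201). Its call was lost without any 1 wild-type library or without knockout replicate 3. Myh2, the heavy chain of type 2A fibers, was at 0.884, 2.28 and 1.02 CPM in the wild-type and 1.30, 4.31 and 3.66 CPM in the knockout libraries and did not pass (adjusted p = 0.105). Wild-type replicate 2 lay above knockout replicate 1, and without either of these libraries Myh2 passed. The 3 heavy chain genes are neighbors on chromosome 11 and similar in sequence, and read pairs that map to more than 1 of them were not counted.

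Myl1, the essential light chain of fast myosin, was at 1.22, 1.46 and 0.909 CPM in the wild-type and 2.21, 3.36 and 3.40 CPM in the knockout libraries (log2 fold change 1.32, SE 0.28, adjusted p = 0.00692). Mylpf, the fast regulatory light chain, was at 2.15, 2.70 and 2.27 CPM against 3.58, 3.83 and 3.53 CPM, a narrower gap that still left the groups apart (log2 fold change 0.62, SE 0.18, adjusted p = 0.0302). The Mylpf call was lost without any 1 wild-type library and without knockout replicate 2 or 3. Both forms of myosin-binding protein C, which tethers and regulates the thick filament, were higher. The fast form Mybpc2 went from 0.607, 0.477 and 0.535 CPM to 1.43, 1.94 and 1.72 CPM (log2 fold change 1.64, SE 0.28, adjusted p = 0.00277). Its call held with each library left out in turn, and its log2 fold change was 2.24 in the first stranded column. The slow form Mybpc1 went from 1.08, 0.953 and 0.722 CPM to 1.53, 2.02 and 2.15 CPM (log2 fold change 1.04, SE 0.28, adjusted p = 0.0190). Without knockout replicate 3 or any 1 wild-type library the Mybpc1 call was lost. The slow heavy chain Myh7, with 27 counts in the wild-type and 34 in the knockout group, and the slow and cardiac regulatory light chain Myl2, with 14 and 13 counts, were too low to be tested.

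The thin filament divided, with 3 of 7 tested members higher, against 17.6% of all genes tested. Acta1 was at 8.70, 9.24 and 5.43 CPM in the wild-type and 14.0, 19.2 and 20.2 CPM in the knockout libraries (log2 fold change 1.19, SE 0.22, adjusted p = 0.00422). All knockout libraries stood above all wild-type libraries. Its coding sequence is close to that of the other actin genes, and pairs that map to several genes were not counted. How many such pairs Acta1 had was not measured. Neb, nebulin, which runs along the thin filament, went from 4.28, 4.21 and 3.29 CPM to 5.24, 8.22 and 8.91 CPM (log2 fold change 0.92, SE 0.23, adjusted p = 0.0138), a call lost without wild-type replicate 3 or knockout replicate 3.

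Of the troponin genes among the members, Tnni2 alone passed the test. Tnni2, the inhibitory subunit of fast troponin, was at 22.9, 17.0 and 19.2 CPM in the wild-type and 37.2, 53.9 and 33.6 CPM in the knockout libraries (log2 fold change 1.08, SE 0.19, adjusted p = 0.00317). Knockout replicate 2 was the highest there, unlike for Acta1, Myh1 and Ttn, where it was knockout replicate 3. Tnnt3, the tropomyosin-binding subunit of the same fast complex, was at 34.8, 24.9 and 29.96 CPM against 28.3, 29.4 and 28.8 CPM. All 3 knockout values of Tnnt3 lay within the wild-type range (log2 fold change -0.05, SE 0.13, adjusted p = 0.770). Tnnc1, the calcium-binding subunit in slow and cardiac muscle, was at 1.80, 1.91 and 2.22 CPM against 2.70, 2.69 and 2.41 CPM. The groups of Tnnc1 did not overlap, yet the difference did not pass (adjusted p = 0.153). Tnnt1 and Tnni1, the slow forms of the other subunits, were under 1.4 CPM in every library, with overlapping groups and adjusted p of 0.865 and 0.501. Tnnc2, the fast calcium-binding subunit, was at 0 counts in all 6 libraries, and most of its exonic bases also lie in exons of Ube2c on the other strand. Pairs that overlap both genes were not counted for either, so the 0 gives no level for Tnnc2.

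Genes of the Z-disc and the filament scaffold were higher for 5 of 10 members, all tested, against 17.6% of all genes tested. Actn2, alpha-actinin 2, which cross-links actin at the Z-disc, went from 0.552, 0.477 and 0.374 CPM to 1.17, 1.54 and 1.55 CPM (log2 fold change 1.59, SE 0.31, adjusted p = 0.00507). Its fast-fiber relative Actn3 went from 0.718, 0.953 and 0.588 CPM to 2.18, 1.26 and 1.55 CPM (log2 fold change 1.15, SE 0.32, adjusted p = 0.0243). Here knockout replicate 1 was the highest, and the call was lost without it or without wild-type replicate 1 or 3. Ttn, titin, the giant spring that spans from the Z-disc to the middle of the sarcomere, was at 16.3, 15.4 and 14.1 CPM in the wild-type libraries. In the knockout libraries Ttn was at 19.5, 55.5 and 67.4 CPM, so knockout replicate 1 lay close above the wild type and the other two far above (log2 fold change 1.63, SE 0.37, adjusted p = 0.0102). With only the libraries under 40% unmapped pairs, the log2 fold change of Ttn was 0.29 and did not pass (adjusted p = 0.0917), and with the unmapped covariate it was 0.50 and passed (adjusted p = 0.0432).

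Xirp2, an actin-binding protein of muscle attachment sites, showed a like split, from 0.359, 1.03 and 0.615 CPM to 0.911, 3.20 and 2.19 CPM. Its groups overlapped, since wild-type replicate 2 lay above knockout replicate 1, and its call (log2 fold change 1.63, SE 0.52, adjusted p = 0.0375) was lost without wild-type replicate 1 or 3 or knockout replicate 2 or 3. The log2 fold change of Xirp2 was 0.38 with only the libraries under 40% unmapped pairs, 0.57 with the unmapped covariate and 2.24 in the first stranded column. Tcap, which anchors titin at the Z-disc, was at 0.359, 0.477 and 0.321 CPM against 0.716, 0.948 and 0.904 CPM (log2 fold change 1.14, SE 0.35, adjusted p = 0.0352), a call kept only without knockout replicate 1 when 1 library was left out. Ldb3, a PDZ and LIM domain protein of the Z-disc, Myot, myotilin, and Klhl41, a protein that stabilizes nebulin, were at means of 0.508, 0.224 and 0.519 CPM in wild-type and 1.20, 0.569 and 0.871 CPM in knockout tumors. None of these passed, with adjusted p of 0.0542, 0.0525 and 0.161. Myot passed once knockout replicate 2 was left out, and Ldb3 did so without replicate 2 of either group. The calsarcins Myoz1 and Myoz2, which tie calcineurin to the Z-disc in fast and slow fibers, had log2 fold changes of 0.65 (SE 0.39) and 0.72 (SE 0.45) and did not pass.

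Genes of calcium handling were higher for 3 of 5 tested members, against 17.6% of all genes tested. Atp2a1, the calcium pump of the fast-fiber sarcoplasmic reticulum, went from 1.27, 1.38 and 0.615 CPM to 2.31, 3.48 and 3.40 CPM (log2 fold change 1.49, SE 0.33, adjusted p = 0.00927). With only the libraries under 40% unmapped pairs and with the unmapped covariate, Atp2a1 did not pass (adjusted p of 0.0612 and 0.0621). Ryr1, the calcium release channel, went from 1.63, 2.49 and 1.71 CPM to 2.86, 3.75 and 3.61 CPM (log2 fold change 0.81, SE 0.24, adjusted p = 0.0285), a call lost without wild-type replicate 1 or 3 or knockout replicate 2 or 3. Pvalb, parvalbumin, a soluble calcium buffer of fast fibers, went from 0.193, 0.318 and 0.214 CPM to 0.716, 0.435 and 0.645 CPM (log2 fold change 1.30, SE 0.43, adjusted p = 0.0426). The Pvalb call was lost without any 1 library other than knockout replicate 2. Casq1, the calcium-binding protein inside the reticulum, stood at 0.304, 0.344 and 0.214 CPM in the wild-type and 0.228, 1.11 and 0.774 CPM in the knockout libraries. Knockout replicate 1 lay inside the wild-type range of Casq1, and the gene passed only without it (adjusted p = 0.0169). Trdn, triadin, which links Casq1 to the release channel, was at 0.166, 0.662 and 0.187 CPM against 0.878, 0.711 and 1.46 CPM. It missed the threshold with all libraries (adjusted p = 0.0625) and passed without wild-type replicate 2 or knockout replicate 2. Without wild-type replicate 2 its log2 fold change was 2.46, against 1.57 with all libraries. Cacna1s, the voltage sensor that triggers Ryr1, had 17 counts in the wild-type and 26 in the knockout group and was too low to be tested.

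Of the genes of energy supply, 3 of 4 tested members were higher, against 17.6% of all genes tested. Mb, myoglobin, the oxygen store of oxidative fibers and of heart, went from 0.801, 0.662 and 0.347 CPM to 2.31, 3.28 and 3.36 CPM (log2 fold change 2.30, SE 0.34, adjusted p = 0.00129), a 4.91-fold rise. This was the largest of the 33 tested members, and 31.9% of the exonic bases of Mb overlap exons of other genes. Ckm, muscle creatine kinase, which buffers ATP, went from 0.966, 0.953 and 0.775 CPM to 1.59, 2.69 and 3.53 CPM (log2 fold change 1.52, SE 0.33, adjusted p = 0.00749). The log2 fold change of Ckm was 0.65 in the first stranded column, 0.76 with only the libraries under 40% unmapped pairs and 0.91 with the unmapped covariate, none of which passed (adjusted p of 0.0757, 0.0771 and 0.0613). Pygm, muscle glycogen phosphorylase, went from 1.44, 1.11 and 0.855 CPM to 2.25, 2.21 and 2.41 CPM (log2 fold change 1.01, SE 0.26, adjusted p = 0.0165). The Pygm call was lost without wild-type replicate 2 or 3 or knockout replicate 3. Eno3 was at 142.5, 136 and 124.5 CPM in the wild-type and 142.5, 102 and 104 CPM in the knockout libraries and did not pass (log2 fold change -0.21, SE 0.14, adjusted p = 0.259). Knockout replicates 2 and 3 lay below all wild-type libraries and knockout replicate 1 did not, and without knockout replicate 1 Eno3 was lower (log2 fold change -0.39, adjusted p = 0.00623). Ampd1, muscle AMP deaminase, had 28 and 23 counts in the wild-type and knockout groups and was not tested.

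Fast fiber genes were higher for 9 of 12 tested members, with a median log2 fold change of 1.19, and slow fiber genes for 1 of 5, Mybpc1, with a median of 0.40. The 16 tested genes that both fiber types use had 10 higher and a median of 1.25. In all 3 classes 0 members were lower, by edgeR at the adjusted and the unadjusted threshold and by DESeq2. Of all genes tested, 17.6% were higher, so the slow count of 1 in 5 is near that background. Whether fast and slow genes differ in their change was not tested, and the slow genes had the lower counts. The fast count was 5 without wild-type replicate 1 or wild-type replicate 3. The slow count was 2 without knockout replicate 2, and 0 without any 1 wild-type library or without knockout replicate 3. The count of shared genes was 5 without wild-type replicate 3 or knockout replicate 3.

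**Figure D2:**
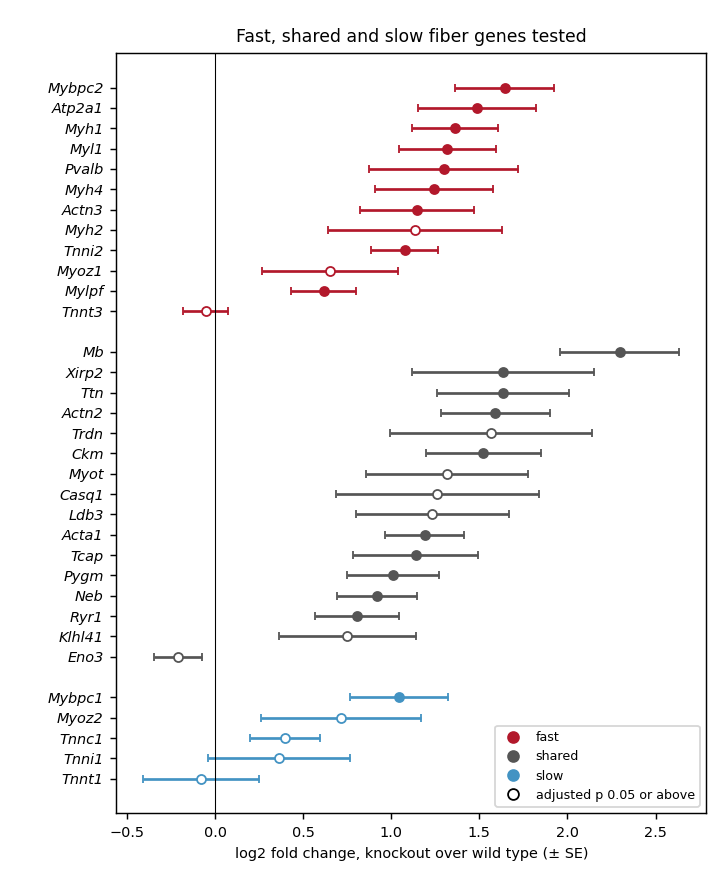
Log2 fold change (knockout over wild type, points) with its SE (bars) for the 33 tested skeletal muscle genes, colored by fiber class, with open points where the adjusted p was 0.05 or above. The fast genes lie between -0.05 and 1.64, the shared genes between -0.21 and 2.30 and the slow genes between -0.08 and 1.04.

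Fast forms outweighed slow forms in every library for 5 of the 6 proteins with a counted fast and slow gene, compared as log2 ratios of CPM per kilobase of exon. The sum of the heavy chains Myh1, Myh2 and Myh4 over Myh7 gave log2 ratios of 5.37, 5.22 and 4.99 in the wild-type and 4.67, 8.28 and 5.41 in the knockout libraries. The value of 8.28 rests on 2 counts of Myh7 (95% exact counting interval 6.43 to 11.33), and the groups overlapped. Tnni2 over Tnni1 gave 6.16, 6.003 and 6.06 in the wild-type and 6.62, 8.10 and 5.92 in the knockout libraries, again with the highest value in knockout replicate 2 and with overlap. Tnnt3 over Tnnt1 gave 5.48 ± 0.19 in wild-type and 5.57 ± 0.44 in knockout tumors (SD, n = 3 each), a difference within the spread. Mylpf over Myl2 gave 5.17 ± 0.47 and 5.38 ± 0.49, and Myoz1 over Myoz2 gave 2.02 ± 0.50 and 1.89 ± 0.47, with overlap in both. Myl2 had 3 counts in wild-type replicate 3 and in knockout replicate 2, where the log2 ratios were 5.70 (95% exact counting interval 4.15 to 7.98) and 5.89 (4.34 to 8.17).

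Myosin-binding protein C was the exception in level, and its groups alone did not overlap among the 6 proteins. Mybpc2 over Mybpc1 gave log2 ratios of -0.50, -0.67 and -0.11 in the wild-type and 0.23, 0.27 and 0.00 in the knockout libraries. All knockout libraries lay above all wild-type libraries, so the fast form was below the slow form in the wild-type tumors and level with it or above it in the knockout tumors. These ratios of chosen members were not tested, and a two-sided exact permutation test of 3 against 3 libraries cannot go below 0.10.

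**Figure D3:**
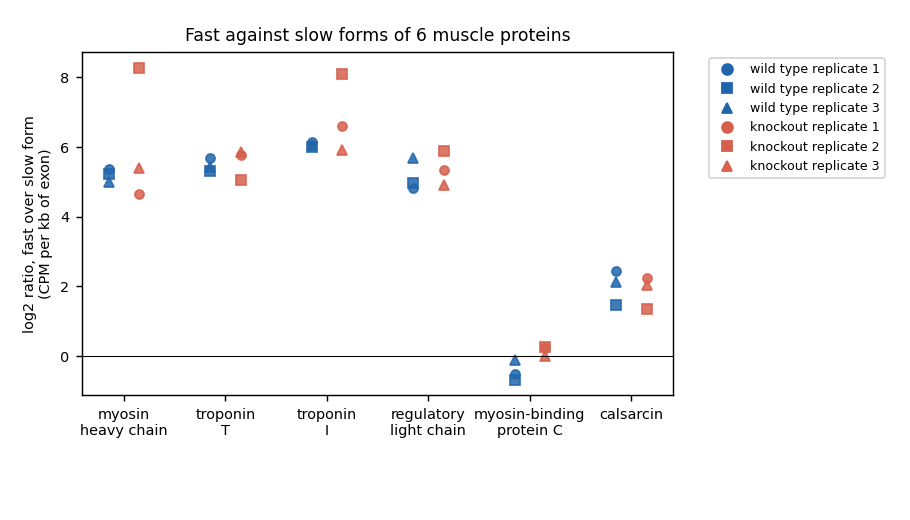
Log2 ratio of the fast over the slow form of 6 muscle proteins (CPM per kilobase of exon) in each library, with wild-type libraries on the left in blue and knockout libraries on the right in red of each protein. The groups overlap for every protein other than myosin-binding protein C, and knockout replicate 2 is highest for the myosin heavy chain, at 8.28, and for troponin I, at 8.10.

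Summed over all 13 fast and all 7 slow members, the fast genes stood at 42.3, 33.0 and 36.2 CPM per kilobase in the wild-type and 51.8, 65.4 and 52.1 CPM per kilobase in the knockout libraries. The slow genes stood at 2.78, 2.85 and 3.04 against 3.76, 3.92 and 3.83 CPM per kilobase. The log2 ratio of these sums was 3.68 ± 0.22 in wild-type and 3.87 ± 0.17 in knockout tumors (SD, n = 3 each), with overlap. Tnni2 and Tnnt3 made up most of the fast sum. Without them, an alternative chosen after seeing the data, the log2 ratio was 0.83, 1.07 and 0.54 in the wild-type and 1.27, 1.47 and 1.58 in the knockout libraries, with no overlap.

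The knockout libraries did not carry the muscle genes in 1 common order. Over the 37 members with counts, knockout replicate 3 was the highest knockout library for 20, knockout replicate 2 for 11 and knockout replicate 1 for 6. Knockout replicate 1 was the lowest for 19, knockout replicate 2 for 14 and knockout replicate 3 for 4. Against the wild-type mean, knockout replicates 1, 2 and 3 stood at 1.28, 3.64 and 4.41 times for Ttn, at 0.793, 3.85 and 2.70 times for Casq1 and at 0.935, 3.09 and 2.63 times for Myh2. Other members were as high or higher in knockout replicate 1, with 2.89, 1.68 and 2.06 times for Actn3, 3.01, 2.02 and 2.03 times for Ldb3 and 2.32, 1.14 and 1.58 times for Klhl41. Myh7 stood at 2.29, 0.327 and 2.67 times and Tnni1 at 1.30, 0.676 and 1.90 times, both lowest in knockout replicate 2. The share of pairs outside exons has the same order, 14.2%, 9.91% and 18.9%. With that share as a covariate the log2 fold change of Tnni1 was -0.37, against 0.36 without it, and neither passed. Its part in the values of Myh7 was not tested. In the wild-type group, replicate 2 was the highest library for 20 of the 37 members, replicate 1 for 14 and replicate 3 for 3.

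Further genes of mature muscle, from lists chosen with earlier results of these data known, passed the test in part. Of 22 other mature muscle genes, 14 were tested, 4 were higher and 1 was lower, against 17.6% and 18.4% of all genes tested, with a median log2 fold change of 1.06. Lmod2, an actin nucleator of striated muscle, rose by 1.47 on the log2 scale and Asb5 by 1.52, with adjusted p of 0.0279 and 0.0423, and Myom3, a myomesin of the M-band, by 1.72 (adjusted p = 0.0481). Txlnb, a taxilin of striated muscle, went the other way, from 2.15, 1.59 and 1.92 CPM to 0.651, 0.790 and 0.688 CPM (log2 fold change -1.41, SE 0.26, adjusted p = 0.00413).

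Of 13 genes of excitation-contraction coupling, the steps from the electrical signal to calcium release, 12 were tested, 6 were higher (17.6% of all genes tested were) and 0 lower by edgeR at either threshold. Jph2, a junctophilin that holds the reticulum to the plasma membrane in heart and skeletal muscle, was at 2.84, 2.73 and 3.39 CPM against 8.69, 12.5 and 8.05 CPM (log2 fold change 1.70, SE 0.21, adjusted p = 0.000450). Cacng1, a subunit of the muscle calcium channel, had 6 counts in the wild-type and 31 in the knockout group (log2 fold change 2.76, SE 0.64, adjusted p = 0.0104). Cacna2d1, another channel subunit, and Jph1, the skeletal junctophilin, rose by 1.15 and 1.63 on the log2 scale, with adjusted p of 0.00160 and 0.0325.

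Myod1, Myog and Pax7, genes of muscle precursors, had few counts. Myod1, a transcription factor that starts the muscle program, had 2 counts in the wild-type and 4 in the knockout group. Myog, which acts later in differentiation, had 13 and 34 counts, with 24 in knockout replicate 1 (0.781 CPM). Pax7, the marker of muscle stem cells, had 14 and 20, with 12 in knockout replicate 3 (0.516 CPM). None of these was tested. Mef2c, a transcription factor of the same list that other cell types also express, was lower, at 28.1, 24.7 and 26.6 CPM against 11.7, 11.7 and 10.8 CPM (adjusted p = 7.84e-05).

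Markers of heart muscle bear on the members that heart shares, which include Mb, Myh7, Myl2, Tnnc1 and Actn2 but are not limited to them. Myh6, the heart's own myosin heavy chain, had 4 counts in the wild-type and 2 in the knockout group, Myl7 had 0 and 1, Nkx2-5 had 2 and 0 and Nppa had 0 and 4. Tnnt2, cardiac troponin T, was far above them at 195, 199 and 216 CPM against 509.5, 405 and 409 CPM (log2 fold change 1.12, SE 0.11, adjusted p = 0.000175). The other cardiac gene that passed, of 6 tested, was Nppb, a natriuretic peptide, with a log2 fold change of 1.32 (edgeR adjusted p = 0.00939). Ryr2, Actc1, Mybpc3 and Tnni3 were tested and did not pass. They had 90, 68, 59 and 41 counts in the wild-type and 144, 76, 62 and 38 in the knockout group, so these cardiac genes were not absent. Of all genes tested, 17.6% were higher. The cardiac list without Tnnt2 summed to 2.78 to 3.66 CPM in the wild-type and 4.54 to 7.87 CPM in the knockout libraries.

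Marker lists of adipocytes, keratinocytes, smooth muscle and fibroblasts moved mostly in the same direction, and their part in the muscle values was not tested. Whether tumor or host cells made these RNAs, those of the keratin genes included, cannot be told apart in bulk RNA. Of 10 adipocyte genes 10 were higher, of 10 keratinocyte genes 10, of 10 smooth muscle genes 9 and of 10 fibroblast genes 8. One fibroblast gene, Pdgfra, was lower. Of all genes tested, 17.6% were higher and 18.4% lower. The adipokine gene Adipoq and the basal keratin gene Krt14 had log2 fold changes of 2.90 and 4.29, and Des, which skeletal muscle expresses as well as smooth muscle, of 1.32. Adipocyte genes summed to 104 to 150.5 CPM in the wild-type and 361, 1005 and 459 CPM in the knockout libraries, keratinocyte genes to 79.2 to 139 CPM and 1007, 1703 and 753 CPM, and smooth muscle genes to 218 to 254.5 CPM and 426, 724 and 534 CPM. Fibroblast genes summed to 3675 to 4583 CPM in the wild-type and 6648, 11990 and 8234 CPM in the knockout libraries. These 4 sums were highest in knockout replicate 2, while the muscle sum without its 3 most abundant genes was highest in knockout replicate 3. Endothelial genes were higher for 1 of 8, Emcn, near the share of all genes tested, and summed to 235 to 322.5 CPM against 233, 309 and 265.5 CPM, with overlap. Of genes of Schwann cells and nerve, which also reach muscle, Mbp was higher and Prx and Pmp22 were lower. No gene of the adipocyte, keratinocyte, smooth muscle, fibroblast or endothelial lists was at 0 in any library.

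**Figure D4:**
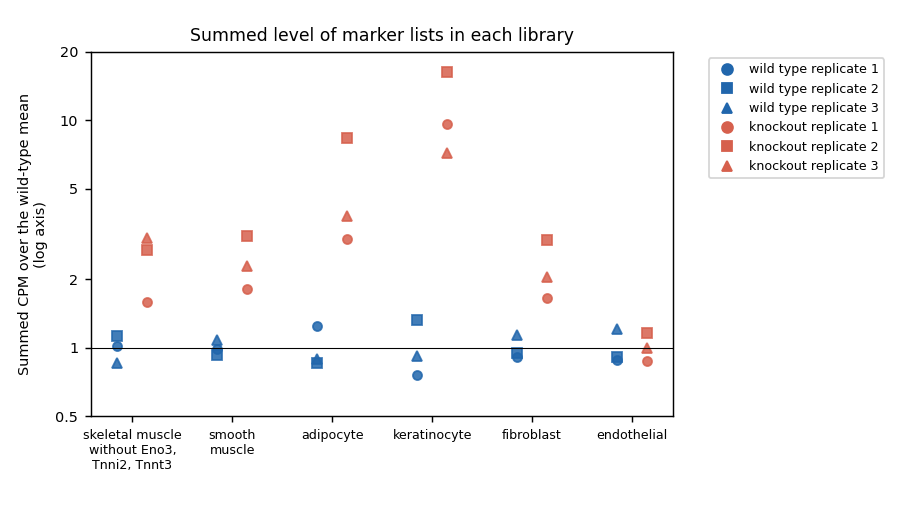
Summed CPM of marker lists in each library, divided by the list's wild-type mean (log axis), with wild-type libraries in blue and knockout libraries in red. The skeletal muscle sum, here without Eno3, Tnni2 and Tnnt3, stands at 1.59, 2.70 and 3.04 in knockout replicates 1, 2 and 3, where the adipocyte sum stands at 2.996, 8.33 and 3.80.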

How the data were processed

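For each of the 6 libraries, 1 deposited table gives raw counts of read pairs by gene, in whole numbers and with no normalization. The submitters' processing notes list STAR 2.6.0c, the GRCm38 build, FastQC and DESeq2. The tables have the layout of STAR's own gene counting, which leaves out pairs that map to several places or overlap several genes. The unstranded column was used, since the 2 stranded ones were near equal (50.1% to 50.2% in the first). The 4 rows of totals that name no gene stayed out of library sizes, and the shares they give are in the opening of the results. Of 54146 gene rows, 54079 were matched by identifier to GENCODE M21, which gave symbols, coordinates and exon lengths.

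The test was edgeR 4.0.16's quasi-likelihood test (R 4.3.3; filterByExpr, TMM, glmQLFit and glmQLFTest), with Benjamini-Hochberg adjustment over 19900 genes and a threshold of 0.05. Each SE was derived from the log2 fold change and its F statistic. No list was tested as a set. All 38 members are named, and of other lists up to 4 genes with the smallest p, with Myod1, Myog, Pax7, Myh3, Myh6, Krt14, Adipoq and Mki67. Krt8, Epcam, Nppa, Myl7, Nkx2-5, Mybpc3, Tnni3, Myom3 and Myh1's promoter were chosen after their values were seen. The members and lists were chosen with earlier results of these data known. The protein sequences the plan named are not shown here, and some genes of these lists are not reported here.

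Alternatives were DESeq2 1.42.0, RLE factors, scaling by totals, a stricter filter (30 counts in 3 libraries) or none, the first stranded column, a robust fit, each library left out, a replicate block, libraries under 40% unmapped pairs and the unmapped share as a covariate. A covariate for the share outside exons and the fast sum without Tnni2 and Tnnt3 were added after seeing the data. A test on simulated counts for this comparison covered 20393 genes. It recovered 85 of 100 genes changed by 1 on the log2 scale and 100 of 100 changed by 2, with 12 false calls of 197. The changed genes were drawn only from those with a mean above 30 counts, and all genes shared a common dispersion. Recovery was therefore not measured for members with lower counts. The labels do not say that replicates came from separate animals, so p-values measure the spread between these libraries.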

Additional observations from a re-analysis of the deposited data

How the results depend on the processing

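Calls of 6 members, Acta1, Mb, Myh1, Tnni2, Actn2 and Mybpc2, held in all 17 alternatives, though the log2 fold change of Myh1 ranged down to 0.67, and 10 of 20 held with each library left out. With each library left out in turn, members higher ranged from 10 to 20 and lower from 0 to 1, fast genes higher from 5 to 8, slow from 0 to 2, shared genes higher from 5 to 11 and lower from 0 to 1, and all genes from 1821 to 4648 higher and 2257 to 4778 lower.

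With the unmapped share as a covariate, 9 members, 5 fast, 0 slow and 4 shared genes and 2333 of all genes were higher. With only libraries under 40% unmapped, 11 members, 5 fast, 0 slow and 6 shared genes were higher. With the share of pairs outside exons as covariate, 10 members, 5 fast, 0 slow and 5 shared genes were higher and 2238 of all genes lower. Without the filter, or with the first stranded column, 0 slow genes were higher. The fast to slow log2 ratio differed by 0.19 between groups, and by 0.62 without Tnni2 and Tnnt3. The cause of these shifts was not tested.

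Of member values, 14 changed sign, none of them past the threshold. Tnnt1, at -0.08 with all libraries, was at 0.048 without knockout replicate 1 and 0.057 without knockout replicate 3. It was at 0.27 with the share outside exons as covariate, and kept its sign without knockout replicate 2, at -0.438. Tnnt3 was at 0.006 with library totals, 0.016 with the stricter filter, 0.056 with the stranded column and 0.047 without wild-type replicate 1. Tnni1 was at -0.009 without knockout replicate 3 and -0.37 with the share outside exons. With only libraries under 40% unmapped, Myh2 was at -0.16, Casq1 at -0.39 and Eno3 at 0.02, and with the unmapped share as a covariate Casq1 was at -0.20 and Eno3 at 0.033.

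The replicate block left 18 members higher. Same-numbered libraries did not deviate together (correlations of 0.05, -0.21 and -0.24), so the numbers are not taken to pair them. Members under 1 CPM rest on few counts per library, which limits what could be called.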

Other observations

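Of the embryonic and neonatal myosin genes, which muscle uses during growth and repair, 1 of 3 was higher, where 17.6% of all genes tested were, so the count says nothing of the list. Myh8, the neonatal heavy chain, was at 0.856, 0.768 and 0.588 CPM in the wild-type and 1.85, 1.94 and 3.36 CPM in the knockout libraries, with no overlap (log2 fold change 1.68, SE 0.32, edgeR adjusted p = 0.00464). It lies in the same gene cluster as the adult fast heavy chains and is similar to them in sequence. Myh3, the embryonic heavy chain, was at 0.193, 0.609 and 0.240 CPM against 0.488, 0.237 and 0.645 CPM, with overlap and no call (adjusted p = 0.626). Myl4, an embryonic light chain also made in the heart's atria, was at 1.53 CPM ± 0.21 and 2.30 CPM ± 0.23 (SD, n = 3 each) and did not pass (edgeR adjusted p = 0.0712).

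Of 9 genes of the neuromuscular junction, 4 were tested and 1 was higher, near the 17.6% of all genes tested. Dok7, an adaptor needed to form the junction, had 11 counts in the wild-type and 40 in the knockout group (log2 fold change 2.31, SE 0.50, adjusted p = 0.00767). Chrnb1, an acetylcholine receptor subunit, was at 82.2 CPM ± 5.9 and 91.0 CPM ± 14.5 (SD, n = 3 each) and did not pass (edgeR adjusted p = 0.372). Of the ubiquitin ligases of muscle wasting, Fbxo32, atrogin-1, went from 19.6, 22.1 and 20.8 CPM to 30.6, 37.8 and 30.9 CPM (log2 fold change 0.67, SE 0.12, adjusted p = 0.00295). Trim63, the ligase MuRF1 and far rarer here, was at 0.249, 0.477 and 0.294 CPM against 1.01, 0.119 and 0.344 CPM, with overlap and no call (adjusted p = 0.542).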
